A study of Mus musculus with 37 samples.

Results

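The change in RNA from the ovulated egg to the late 1-cell embryo was examined in control mice, by comparing 2 late 1-cell (L1C) libraries with 2 libraries of metaphase II (MII) eggs across all genes. These are 4 of the 37 libraries of the series, which studies the loss of BAP1, a deubiquitinase of histone H2A, in oocytes and early embryos. The control eggs carried Bap1 flox/flox alleles and no Cre transgene, so their Bap1 alleles were flanked by loxP sites but intact. The control embryos came from such eggs fertilised by wild-type B6 sperm and were cultured in KSOM medium. The knockout counterparts used for comparison were 3 MII and 3 late 1-cell libraries in which Gdf9-iCre, a Cre transgene active in oocytes, had deleted Bap1. The embryos of that arm were fertilised by wild-type sperm too, so they lacked the maternal supply of BAP1 and kept an intact paternal allele. The labels do not say how many eggs or embryos went into a library, nor whether replicates came from separate females. The p-values below therefore rest only on spread between libraries. That spread was pooled over 26 libraries of oocytes and early embryos. The median within-group SD of log2 values was 0.078 in control eggs and 0.086 in control late 1-cell embryos. It was 0.218 and 0.237 in control and knockout early 2-cell embryos, which are also in the fit.

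A fully grown oocyte holds a large store of messenger RNA (mRNA) made during its growth, and transcription is silent from the end of growth until after fertilisation. During maturation and after fertilisation much of this store is degraded, in a process that uses shortening of the poly(A) tail, and some stored mRNAs are translated only when their tail is lengthened. Transcription from the embryo's own genome begins at a low level in the late 1-cell embryo and becomes strong at the 2-cell stage. The libraries were made from total RNA with random primers, so they count an mRNA whether its tail is long or short. The values are FPKM, fragment counts scaled by transcript length and library size, a share of the library and not an amount per egg. Total RNA per egg or embryo was not measured, and fewer cells contributing a transcript and less of it per cell cannot be told apart.

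The labels were first checked on Bap1 itself, at chr14:31251450-31259944 (GRCm38). Bap1 was at 29.9 and 28.5 FPKM in the control eggs and at 24.7 and 25.2 FPKM in the control late 1-cell libraries. The 6 knockout libraries lay between 4.15 and 5.68 FPKM, below all 4 controls. Bap1 did not pass the test in the control step, with a log2 change of -0.22 (SE 0.19, adjusted p = 0.576, limma). Markers of the blood lineage were listed at 0 in all 4 libraries, and of 17 cumulus and granulosa markers 7 were at 0 throughout. The summed level of these 17 was 5.98 and 8.15 FPKM in eggs and 6.73 and 7.87 FPKM in late 1-cell embryos, most of it Cyp19a1. Of 11 spermatid markers 6 were at 0 in all 4 libraries, including Prm1, Tnp1 and Tnp2, and their summed level was no higher after fertilisation (9.64 and 7.43 FPKM against 5.30 and 4.10 FPKM). All 10 egg and oocyte markers were detected, with summed levels of 3617 and 3506 FPKM in eggs and 1817 and 1834 FPKM in late 1-cell embryos. The 2 egg libraries correlated at 0.992 with each other over log2 values, the 2 late 1-cell libraries at 0.991, and pairs across the stages at 0.970 to 0.976.

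Among RNAs whose share of the library changed, falls were larger and more numerous than rises. Of 15184 genes tested, 1173 (7.73%) fell and 485 (3.19%) rose at an adjusted p under 0.05, and 3517 passed an unadjusted p of 0.05. Every gene called at the adjusted threshold had both late 1-cell libraries on the same side of both egg libraries. Such separation was not confined to called genes, so it adds no support to the calls. Bap1 and Bmp15, for example, separated likewise and did not pass the test. The share of all genes tested that separate in this way is not given here. The median fall was -0.95 on the log2(FPKM + 1) scale and the median rise 0.44, while the median over all genes was -0.01. A change of at least 1 log2 unit was reached by 531 of the genes that fell and by 12 of those that rose. Genes called higher were abundant in the egg, with a median of 34.7 FPKM, against 13.7 FPKM for genes that fell and 3.96 FPKM for all genes. Over all 11675 protein-coding genes, however, the log2 change had Spearman's rho -0.00014 with the egg level. Over the 6335 with at least 5 FPKM in eggs it was 0.09. Whether small changes pass more readily in abundant genes was not tested. The direction of small changes rests on the scaling. Centring each library on its median moved the median of all genes from -0.01 to 0.16 and called 1454 genes higher and 831 lower, so that higher genes made up 63.6% of calls in place of 29.3%. Leaving out 1 library in turn left 596 to 767 genes lower and 128 to 206 higher, with the fewest of each when MII replicate 2 was left out.

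**Figure D1:**
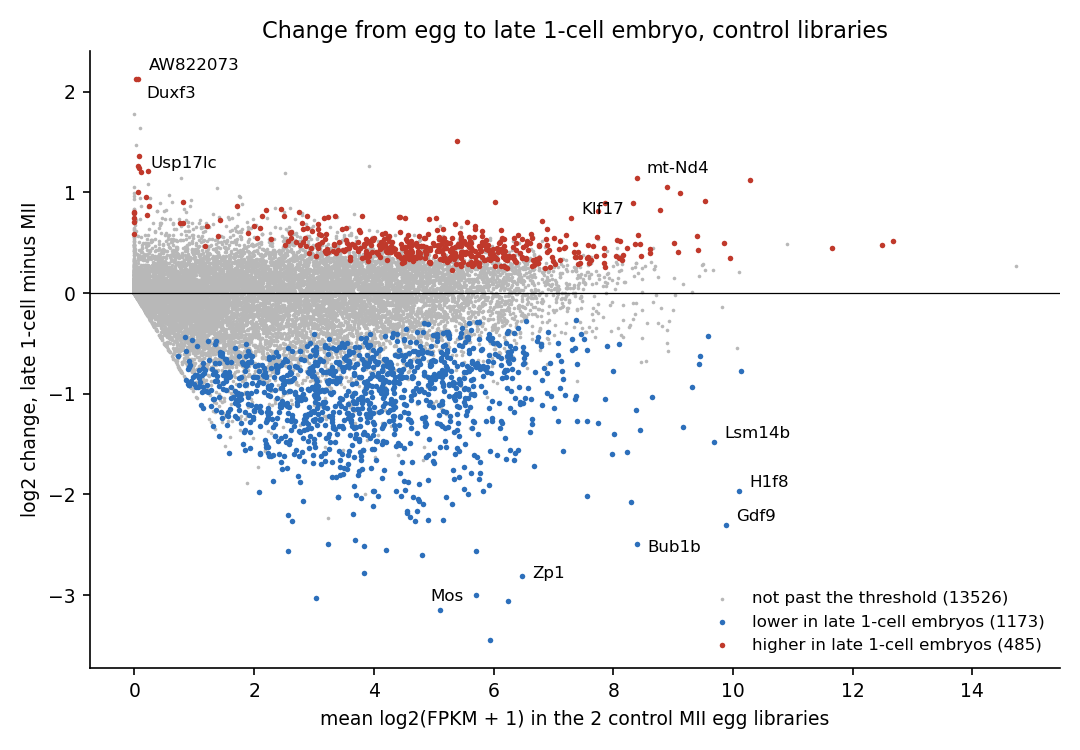
Log2 change from MII egg to late 1-cell embryo in controls (vertical axis) against the mean log2(FPKM + 1) of the 2 egg libraries (horizontal axis), 1 point per gene. The 1173 genes that fell (blue) reach far below the 13526 genes not past the threshold (grey), while the 485 that rose (red) mostly lie close to 0 on the vertical axis.

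By gene type, protein-coding genes held most of the calls and were also most of the genes tested (11675 of 15184). Of these 11675, 1031 fell and 446 rose, beside 7.73% and 3.19% of all genes tested. Processed pseudogenes, intronless copies of mRNAs, had 103 of 1289 lower and 3 higher. They share sequence with their parent genes, so their reads cannot be separated from those of the parents here. Of 733 long intergenic RNAs 11 fell and 17 rose, and of 348 antisense genes 5 fell and 2 rose. Whether strand was used in counting is not given in the sources used here.

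The protein-coding genes with the largest falls included regulators of meiosis, egg coat and secreted proteins, and housekeeping enzymes. Mos (chr4:3870657-3872105, minus strand, 1 exon), the kinase that holds the egg in metaphase II, was at 51.2 and 51.4 FPKM in eggs and at 4.75 and 6.46 FPKM in late 1-cell embryos. The stages lay far apart compared with the spread within a stage. Its log2 change was -3.0 (SE 0.25, adjusted p = 7.97e-08, limma), a 9.14-fold drop in mean FPKM.

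Zp1 (chr19:10914287-10920632, minus strand), a protein of the zona pellucida that coats the egg, went from 83.1 and 93.1 FPKM to 11.5 and 11.8 FPKM, a log2 change of -2.81 (SE 0.22, adjusted p = 5.04e-08, limma). Bub1b (chr2:118598211-118641591, plus strand) encodes BUBR1, a spindle checkpoint protein, and went from 321 and 353 FPKM to 60.3 and 57.7 FPKM, a log2 change of -2.49 (SE 0.19, adjusted p = 2.9e-08). Gdf9 (chr11:53431023-53437904, plus strand), the growth factor by which the oocyte signals to its granulosa cells, was at 986 and 904 FPKM in eggs and at 178 and 202 FPKM afterwards. Its log2 change was -2.31 (SE 0.23, adjusted p = 1.08e-06).

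Of the other large falls, Taldo1, an enzyme of the pentose phosphate pathway, changed by -2.61, and Marchf7, a ubiquitin ligase, by -2.56. Rnf130, another ubiquitin ligase, changed by -2.45. Cox7c, a subunit of cytochrome oxidase, changed by -2.51 and Saraf, a regulator of calcium entry, by -2.25. Their adjusted p-values lay between 2.75e-08 (Marchf7) and 7.72e-05 (Cox7c) in limma, and these 5 falls, like those of Mos, Zp1, Bub1b and Gdf9, passed the threshold without each library in turn. A predicted gene, Gm2000, chosen after its values were seen, changed by -3.44, from 56.4 and 64.7 FPKM to 5.17 and 4.17 FPKM. Since 85.1% of its exonic stretches of 50 bases occur in other genes, its reads are not its own with certainty. Plat, tissue plasminogen activator, a stored mRNA known to be translated during maturation and also chosen after its values were seen, went from 318 and 312 FPKM to 73.4 and 74.4 FPKM (log2 change -2.08).

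Tail lengthening in oocytes uses the cytoplasmic polyadenylation element, a U-rich motif near the end of the 3′ untranslated region (UTR) that binds CPEB1. The last 100 bases of the UTR were searched for TTTTAT or TTTTAAT on the sense strand. Sites are shown for 3 mRNAs that fell and 3 that rose, 30 bases each from GENCODE transcripts (GRCm38), with the motif in capitals, since the same letters stand in both.
Bub1b, fell, chr2:118641521-118641550, plus strand: tctcttttgtaaTTTTATaacatgtactct
Gdf9, fell, chr11:53437854-53437883, plus strand: agagtgctgtggTTTTATgtgacggaagaa
H1f8, fell, chr6:115950157-115950186, plus strand: cgattctgaagcTTTTATtgtctaataagc
Btg4, rose, chr9:51119797-51119826, plus strand: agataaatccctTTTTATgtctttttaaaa
Cnot7, rose, chr8:40493038-40493067, minus strand: tcttaaggtacaTTTTATatcaataaaaat
Zbed3, rose, chr13:95337806-95337835, plus strand: tccttttttttTTTTAATaaacttttattt
The motif stood in 6 of the 10 genes with a window among the 12 that fell most, and in 1 of 6 among the 12 that rose most. Over all protein-coding genes with a window, 21.9% of 895 that fell, 25.2% of 425 that rose and 19.6% of 9563 not past the threshold held it. A match is a description of these letters, not evidence of a working site.

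The egg coat and the oocyte's secreted factors were lower for many of their mRNAs. Of 18 tested, 9 fell and 0 rose, beside 7.73% and 3.19% of all genes (6 fell without MII replicate 1 and 7 without any other 1 of the 4 libraries), with a median change of -0.32 against -0.01 for all genes. Zp3, the zona protein classically linked to sperm binding, went from 79.2 and 83.4 FPKM to 26.5 and 26.2 FPKM (log2 change -1.59, SE 0.20, adjusted p = 1.46e-05, limma). Zp2, which is cut after fertilisation to block further sperm, went from 142 and 148 FPKM to 75.7 and 67.4 FPKM (log2 change -1.01, SE 0.16, adjusted p = 0.0002). Astl encodes ovastacin, the cortical granule protease that cuts ZP2, and went from 41.2 and 48.2 FPKM to 10.2 and 11.5 FPKM (log2 change -1.95, SE 0.17, adjusted p = 1.97e-07). For each of these, like every gene called lower, the egg libraries lay above the late 1-cell libraries with no overlap.

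Fgf8, which with BMP15 acts on cumulus cells, went from 60.5 and 63.2 FPKM to 29.1 and 28.8 FPKM (log2 change -1.07, adjusted p = 0.00138, limma). Figla, the factor that drives the zona genes in growing oocytes, went from 12.1 and 14.0 FPKM to 7.59 and 4.45 FPKM, a call that rests on the library set, since its adjusted p was 0.311 without late 1-cell replicate 2. Nobox and Bmp6 passed with changes of -0.40 each. The Nobox call was lost on leaving out any 1 library, and the Bmp6 call did not hold without MII replicate 1. Bmp15, the partner of GDF9, was at 360 and 376 FPKM in eggs and 447 and 439 FPKM in late 1-cell embryos and did not pass the test (log2 change 0.27, adjusted p = 0.25). Gdf9 and Bmp15, 2 growth factors of the same oocyte programme, thus stood at 190 and 443 FPKM on average at the late 1-cell stage.

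Meiotic regulators had a few large falls and many members that did not pass. Of 53 genes of meiotic arrest, the spindle and cytostatic arrest, 6 (11.3%) fell and 2 (3.77%) rose, beside 7.73% and 3.19% of all genes, and the median change was 0.05. Without either MII or late 1-cell replicate 2, 4 fell and 0 rose. With TPM scaling (each library set to the same sum) 6 fell and 1 rose, and with median centring 5 fell and 13 rose. Besides Mos and Bub1b, Pde3a, the phosphodiesterase whose activity releases meiotic arrest, went from 29.0 and 30.5 FPKM to 17.8 and 17.7 FPKM (log2 change -0.71, SE 0.12, adjusted p = 0.000434, limma). Mapk3, a kinase below MOS, went from 76.5 and 75.0 FPKM to 48.4 and 48.7 FPKM (log2 change -0.63), a call lost on leaving out any 1 library. Espl1, which encodes separase, also fell. Cdc25c, an activator of CDK1, passed at a change of -0.72, with an adjusted p of 0.37 without late 1-cell replicate 2. Ccnb1, the cyclin of CDK1, went from 185 and 162 FPKM to 215 and 230 FPKM (log2 change 0.36, adjusted p = 0.00584, and 0.154 without MII replicate 2). Sgo1, the protector of centromeric cohesion, was the other gene that rose (0.39), a call lost with TPM scaling and at an adjusted p of 0.282 without MII replicate 2. Ccnb2, Plk1, Wee2, Cdc20 and Fbxo43, which encodes the cytostatic factor EMI2, did not pass, with changes from -0.20 (Plk1) to 0.31 (Fbxo43).

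Proteins that store and mask mRNA fell and rose in equal number, 6 and 6 of 36 (16.7% each, beside 7.73% and 3.19% of all genes). Without 1 library 2 to 4 fell and 2 to 4 rose, with the fewest of each (2 and 2) without late 1-cell replicate 2. With TPM scaling 3 rose and 5 fell, and with median centring 12 rose and 3 fell. Lsm14b, an RNA granule protein of the oocyte, went from 803 and 836 FPKM to 286 and 299 FPKM (log2 change -1.48, SE 0.24, adjusted p = 0.000213, limma). Zar1, which binds and stabilises maternal mRNAs in the egg, went from 364 and 334 FPKM to 140 and 130 FPKM (log2 change -1.36, SE 0.19, adjusted p = 7e-05). Patl2 and Igf2bp2, both RNA-binding proteins of the oocyte, passed with changes of -0.69 and -0.57, and their adjusted p-values reached 0.0736 without MII replicate 2 and 0.0988 without late 1-cell replicate 2. G3bp2, a stress granule protein, went the other way, from 206 and 222 FPKM to 379 and 377 FPKM (log2 change 0.82, SE 0.12, adjusted p = 6.2e-05). Marf1, a ribonuclease needed for oocyte meiosis, went from 37.7 and 37.4 FPKM to 52.3 and 54.8 FPKM (log2 change 0.50, SE 0.10, adjusted p = 0.00272). Cpeb1 itself did not pass, with 53.9 and 56.2 FPKM in eggs and 43.2 and 45.4 FPKM afterwards (log2 change -0.31, adjusted p = 0.176).

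The decay machinery that clears maternal mRNA moved in both directions, with 5 of 31 genes (16.1%) rising and 3 (9.68%) falling, beside 3.19% and 7.73% of all genes. Without either MII or late 1-cell replicate 2, 1 rose and 2 fell. With TPM scaling 2 rose and 3 fell, and with median centring 10 rose and 2 fell. Upf1, the helicase of nonsense-mediated decay, went from 96.0 and 102 FPKM to 41.2 and 38.1 FPKM (log2 change -1.30, SE 0.13, adjusted p = 8.48e-07, limma). Dcp1a, the cofactor of mRNA decapping, went from 335 and 330 FPKM to 153 and 142 FPKM (log2 change -1.17, SE 0.18, adjusted p = 0.000166). Dcp2, the decapping enzyme itself, went up, from 26.6 and 27.8 FPKM to 37.6 and 38.5 FPKM (log2 change 0.47, SE 0.08, adjusted p = 0.000383). The decapping enzyme and its cofactor thus changed in opposite directions, also under each scaling tried.

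Btg4, the adaptor that brings the deadenylase to maternal mRNAs, went from 993 and 993 FPKM to 1251 and 1283 FPKM (log2 change 0.35, SE 0.08, adjusted p = 0.00683, limma). Its call was lost with TPM scaling and with quantile normalization, and the adjusted p was 0.0728 without late 1-cell replicate 2. The deadenylase subunits Cnot7 and Cnot6l rose by 0.41 each, from 160 and 164 FPKM to 209 and 223 FPKM for Cnot7. Leaving out 1 library took their adjusted p to 0.121 (late 1-cell replicate 2) and 0.0699 (MII replicate 2), and Cnot7 was lost with TPM scaling. Cnot4 (0.39), a ubiquitin ligase of the same complex, and Cnot10 (-0.63), a further subunit, completed the calls, and both were lost on leaving out any 1 library (adjusted p up to 0.239 and 0.263 without late 1-cell replicate 2).

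The subcortical maternal complex, an oocyte protein assembly needed for the first cleavages, lost transcripts of some subunits and not of others. Of 16 genes tested, 5 (31.2%) fell and 3 (18.8%) rose, beside 7.73% and 3.19% of all genes. Without MII replicate 2, 3 fell and 0 rose, and without either replicate 1, 5 fell and 1 rose. Tle6 went from 281 and 319 FPKM to 101 and 97.5 FPKM (log2 change -1.58, SE 0.21, adjusted p = 3.07e-05, limma). Padi6 went from 559 and 594 FPKM to 236 and 221 FPKM (log2 change -1.33, SE 0.15, adjusted p = 3.68e-06). Nlrp2 changed by -1.29 (30.4 and 34.6 FPKM to 12.2 and 13.1 FPKM). Nlrp14 and Khdc3 changed by -1.03 and -1.01, with adjusted p-values of 0.0606 and 0.0728 without MII replicate 2.

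Other core subunits of that complex did not pass. Nlrp5, also called MATER, was at 294 and 348 FPKM in eggs and 267 in both late 1-cell libraries (adjusted p = 0.528, limma). Ooep was at 130 and 142 FPKM and then at 139 and 140 FPKM (adjusted p = 0.958). Zbed3, among the most abundant mRNAs of the egg, went from 3278 and 3199 FPKM to 4399 and 4460 FPKM (log2 change 0.45, SE 0.11, adjusted p = 0.0106). Its call was lost with quantile normalization and on leaving out each library, with an adjusted p of up to 0.0897 without MII replicate 2. The other 2 that rose were Nlrp4f (0.40) and Nlrp9c (0.37), with adjusted p-values of 0.0577 without MII replicate 2 and 0.112 without late 1-cell replicate 1.

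**Figure D2:**
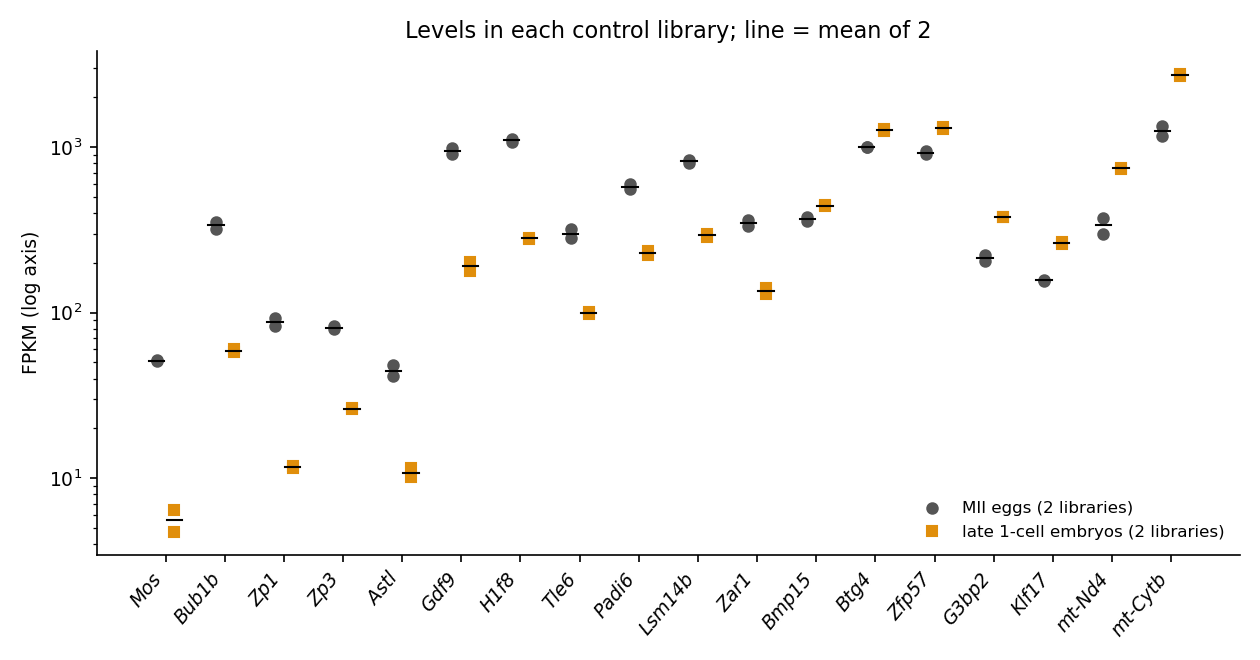
FPKM on a log axis of 18 named genes in each control library, with circles for the 2 MII egg libraries, squares for the 2 late 1-cell libraries and a line for the mean of each pair. Mos, Bub1b, Zp1 and Gdf9 drop far beyond the spread of their pairs, Bmp15 does not pass the test, and mt-Nd4 and mt-Cytb roughly double.

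Proteins that remodel sperm and egg chromatin changed in both directions. Of 51 pronuclear remodelling genes 7 rose and 5 fell, with a median of 0.19, beside 3.19% and 7.73% of all genes. The shares in the list were 13.7% and 9.80%. The 7 rises became 0 without late 1-cell replicate 2, 1 without MII replicate 2, 2 without MII replicate 1 and 3 without late 1-cell replicate 1, and the 5 falls became 5, 3, 3 and 2 in the same order. With TPM scaling 3 rose and 5 fell, and with median centring 18 rose and 3 fell. H1f8 (chr6:115944938-115950236, plus strand), the oocyte-specific linker histone, went from 1122 and 1069 FPKM to 279 and 281 FPKM (log2 change -1.96, SE 0.31, adjusted p = 0.000225, limma). H2az2, which encodes a replacement histone H2A.Z, went from 5.32 and 5.50 FPKM to 2.36 and 2.04 FPKM (log2 change -1.0, adjusted p = 0.00157). Suv39h2, a histone H3K9 methyltransferase, went from 32.1 and 35.5 FPKM to 45.8 and 50.03 FPKM (log2 change 0.49, adjusted p = 0.0156, and 0.154 without late 1-cell replicate 2). Kdm4a, an H3K9 and H3K36 demethylase, went from 33.2 and 31.3 FPKM to 42.6 and 44.5 FPKM (log2 change 0.42, adjusted p = 0.00627, and 0.0867 without MII replicate 2). The falls of H2aj (-0.77), Chaf1b (-0.73) and Setd2 were each lost without late 1-cell replicate 1 (adjusted p = 0.112, 0.299 and 0.343). Hira, Npm2 and Kdm5b did not pass.

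Of 30 genes of DNA methylation and its protection, 2 (6.67%) fell and 2 (6.67%) rose, beside 7.73% and 3.19% of all genes. The share that fell was thus near the background. Gadd45g, among those that rose, is described below with genes near 0 in the egg. With median centring 2 fell and 5 rose. Xrcc1, a scaffold of single-strand break repair, went from 22.9 and 21.8 FPKM to 3.91 and 4.4 FPKM (log2 change -2.18, SE 0.15, adjusted p = 1.74e-08, limma). Trim28, the corepressor recruited by KRAB zinc-finger proteins, went from 42.7 and 41.1 FPKM to 20.9 and 20.1 FPKM (log2 change -1.0, SE 0.16, adjusted p = 0.000182). Zfp57, a KRAB zinc-finger protein that recruits TRIM28 to imprinted regions, went up from 944 and 904 FPKM to 1286 and 1327 FPKM (log2 change 0.50, SE 0.10, adjusted p = 0.00143). So the partners TRIM28 and ZFP57 had transcripts that moved in opposite directions, also under each scaling tried. Dnmt1, Tet3 and Dppa3 did not pass, with changes of -0.44 (adjusted p = 0.0599), 0.17 and 0.23.

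Of 71 replication genes tested 6 (8.45%) rose and 5 (7.04%) fell, beside 3.19% and 7.73% of all genes, so the share that fell was near the background. Without late 1-cell replicate 2 the counts were 1 and 2, without MII replicate 2 they were 2 and 2, and without MII or late 1-cell replicate 1 they were 4 and 2 and 3 and 3. With TPM scaling 3 rose and 8 fell, and with median centring 15 rose and 2 fell. Prim2, the primase subunit, went from 20.3 and 21 FPKM to 7.17 and 6.08 FPKM (log2 change -1.51, SE 0.28, adjusted p = 0.00096, limma). Pole, the catalytic subunit of DNA polymerase epsilon, went from 5.09 and 5.58 FPKM to 1.45 and 1.61 FPKM (log2 change -1.32, SE 0.15, adjusted p = 3.47e-06). Pold3, a subunit of polymerase delta, went from 109 and 107 FPKM to 150 and 148 FPKM (log2 change 0.46, SE 0.08, adjusted p = 0.000256). Pold2 (-0.89), Rfc4 (-0.84) and Orc5 also fell. Pold2 and Orc5 lost their calls on leaving out any 1 library, and Rfc4 without either MII library or late 1-cell replicate 2. Cdt1, Cdc6 and Gmnn, which control origin licensing, did not pass. Among 63 replication-dependent histone genes 3 (4.76%) rose (Hist1h2an, H2bc12 and H1f1) and 1 (1.59%) fell, beside the same 3.19% and 7.73%. The gene that fell, H4c6, went from 7.43 and 7.48 FPKM to 1.95 and 2.50 FPKM (log2 change -1.40, adjusted p = 0.00146). H4c6 shares 39.5% of its exonic stretches with other genes, so its level is uncertain. H2bc12 and H1f1 passed at 0.59 and 0.44, and both calls were lost on leaving out any 1 library.

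Most cytoplasmic ribosomal protein genes fell. Of 91 tested, 52 (57.1%) fell and 0 rose, beside the 7.73% of all genes that fell, and their median change was -0.85 against -0.01 over all genes. Their summed level was 3368 and 3600 FPKM in eggs and 2243 and 2186 FPKM in late 1-cell embryos. Rplp1, a stalk protein, went from 32.7 and 39.7 FPKM to 8.84 and 7.38 FPKM (log2 change -2.03, SE 0.28, adjusted p = 4.01e-05, limma), though 60.0% of its exonic stretches occur elsewhere. Rpl41, the smallest ribosomal protein, went from 54.7 and 56.3 FPKM to 11.2 and 16.2 FPKM (log2 change -1.96, SE 0.26, adjusted p = 2.5e-05), and Rpl39 changed by -2.03 (SE 0.35, adjusted p = 0.000435). The number that fell was 43 to 55 under the 4 other scalings, where the median ran from -0.90 to -0.68 and at most 1 gene rose. Without 1 library the count ranged from 26 (without MII replicate 2) to 38 (without MII replicate 1), with 31 without either late 1-cell library. Many of these short genes have processed pseudogenes, and how the authors' counting split such reads is not given in the sources used here.

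Ribosomal protein mRNAs often begin with a terminal oligopyrimidine tract, a C followed by pyrimidines that ties their translation to growth signals through mTOR. RefSeq promoters (GRCm38.p6) were searched on the sense strand for a C within 5 bases of the start that begins at least 6 pyrimidines in a row, whatever base stands before it. A promoter was at hand for 67 of the 91 genes. The windows of 5 genes that fell show how it varies, with capitals from the matching C nearest the start to the last pyrimidine of the run. In Rps21 and Rpl31 the base before the capitals is also a C.
Rps21, chr2:180257369-180257398, plus strand: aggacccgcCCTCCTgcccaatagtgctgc
Rpl38, chr11:114668570-114668599, plus strand: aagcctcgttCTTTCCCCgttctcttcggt
Rpl31, chr1:39367841-39367870, plus strand: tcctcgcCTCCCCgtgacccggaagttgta
Rpl18, chr7:45718061-45718090, plus strand: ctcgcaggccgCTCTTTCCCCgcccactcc
Rpl12, chr2:32961702-32961731, plus strand: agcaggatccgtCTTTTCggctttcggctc
These 5, named because they carry the run, changed by -1.87, -1.70, -1.66, -1.59 and -1.58 in this order. Rpl38 and Rpl18 lost their calls without late 1-cell replicate 1 (adjusted p = 0.228 and 0.207, limma). Of the ribosomal protein genes that fell and had a promoter, 22 of 38 (57.9%) carried the run, against 7 of 29 (24.1%) of those not past the threshold and 1259 of 9953 (12.6%) of all tested genes with a promoter. All genes that fell carried it in 119 of 840 promoters (14.2%).

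Many nuclear-encoded subunits of oxidative phosphorylation, which make energy in mitochondria, fell too. This list was added after values were seen. Of 80 tested, 45 (56.2%) fell and 0 rose, beside 7.73% and 3.19% of all genes. The median change was -0.82, with summed levels of 1888 and 2054 FPKM in eggs and 1158 and 1139 FPKM afterwards. Uqcrq, of complex III, went from 40.9 and 36.6 FPKM to 7.87 and 8.70 FPKM (log2 change -2.10, SE 0.19, adjusted p = 3.81e-07, limma). Atp5g1, of the ATP synthase ring, went from 20.5 and 21.1 FPKM to 4.73 and 4.07 FPKM (log2 change -2.02, SE 0.29, adjusted p = 6.86e-05). The count was 28 with a pseudocount of 0.1, and without 1 library it ranged from 17 (without MII replicate 2) to 32 (without MII replicate 1), with 25 and 22 without late 1-cell replicates 1 and 2. The oligopyrimidine run stood in 5 of the 38 genes of this list that fell and had a promoter (13.2%), close to the 12.6% of all genes.

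**Figure D3:**
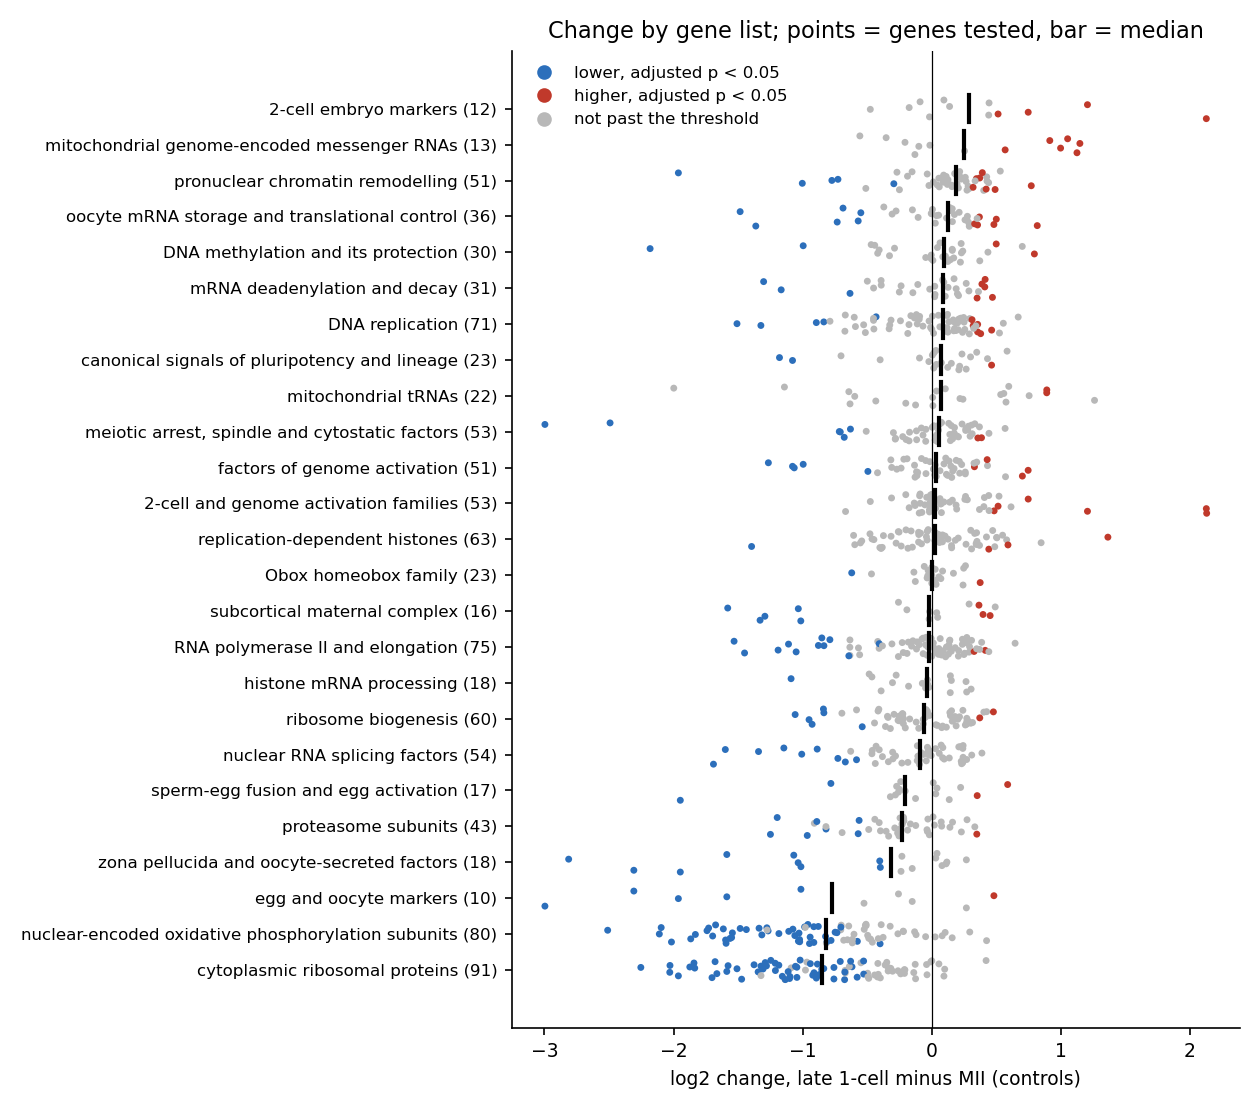
Log2 change from MII egg to late 1-cell embryo in controls for each member of every gene list with at least 10 tested genes, 1 point per gene and a bar at the list's median. The cytoplasmic ribosomal proteins (median -0.85) and the oxidative phosphorylation subunits (median -0.82) lie lowest among the lists, and the other lists centre nearer 0.

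Other gene groups of RNA synthesis and protein turnover had falls at shares of 10.0% to 16.7%, beside 7.73% of all genes, and for some of them the direction of most calls depended on the scaling. Of 75 genes of RNA polymerase II and elongation 11 (14.7%) fell and 2 rose, and with median centring 8 fell and 10 rose. Without late 1-cell replicate 2, 7 of these genes fell. Taf6l, of the SAGA coactivator, went from 6.28 and 7.94 FPKM to 1.94 and 1.65 FPKM (log2 change -1.53, adjusted p = 2.4e-05, limma), and the small polymerase subunits Polr2l and Polr2i changed by -1.45 and -1.19. Polr2a, the largest subunit, did not pass, with 6.69 and 5.87 FPKM in eggs and 5.99 and 5.41 FPKM afterwards. Cdk12, a kinase of the polymerase tail, rose from 60.9 and 61.3 FPKM to 81.3 and 82.2 FPKM (log2 change 0.41, adjusted p = 0.00168). Gtf2a1, a subunit of TFIIA, rose by 0.33, a call lost with TPM scaling and on leaving out any 1 library. Of 54 splicing factors 9 (16.7%) fell and 0 rose, led by Snrpd2 (-1.69) and Xab2 (-1.60), and Prpf8, the core of the spliceosome, went from 46.7 and 51.6 FPKM to 17.6 and 20.1 FPKM (log2 change -1.34). With centring on the median, 7 splicing factors fell and 5 rose. Of 43 proteasome subunits 7 (16.3%) fell and 1, Psme3, rose, and with median centring 5 fell and 2 rose. The 7 falls became 2 without MII replicate 2, 2 without late 1-cell replicate 2 and 5 without either of the others. Of 60 ribosome biogenesis genes 6 (10.0%) fell and 2, Npm1 and Wdr43, rose, and with median centring 5 fell and 6 rose. Their 6 falls became 3 without either MII or late 1-cell replicate 2. Psme3, Npm1 and Wdr43 passed at 0.35, 0.37 and 0.48. Psme3 and Wdr43 lost their calls on leaving out any 1 library, and Npm1 without MII replicate 2 or either late 1-cell library.

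Known factors of genome activation changed in both directions. Of 51 activation factors 5 (9.80%, beside 7.73% of all genes) fell (Hspa8, Esrrb, Sox15, Trim28 and Nfya) and 4 (7.84%, beside 3.19%) rose (Klf17, Yap1, Nfyc and Myc), and with median centring 3 fell and 11 rose. Without either MII replicate 2 or late 1-cell replicate 1, 2 fell and 2 rose, and without either of the others 3 fell and 2 rose. Hspa8, the constitutive heat shock chaperone, went from 179 and 198 FPKM to 74.2 and 81.3 FPKM (log2 change -1.27, SE 0.12, adjusted p = 5.28e-07, limma), with 39.4% of its stretches shared with other genes. Klf17 (chr4:117757836-117765648, minus strand), a Krüppel-like transcription factor of the egg and early embryo, went from 158 and 155 FPKM to 260 and 267 FPKM (log2 change 0.75, SE 0.09, adjusted p = 1.76e-05), a 1.68-fold higher mean. Yap1, the Hippo pathway coactivator, went from 125 and 117 FPKM to 160 and 166 FPKM (log2 change 0.43, SE 0.08, adjusted p = 0.00122). Cdh1, which encodes E-cadherin, went from 79.8 and 80.8 FPKM to 31.5 and 38.6 FPKM (log2 change -1.18, SE 0.12, adjusted p = 6.38e-07). Pou5f1, Nr5a2, Tfap2c and Dppa2 did not pass. Sox15 (-1.07), Nfya (-0.49) and Nfyc (0.33) lost their calls on leaving out any 1 library, and Esrrb (-1.08) without MII replicate 2 or late 1-cell replicate 1. Of 23 Obox homeobox genes Obox5 rose (0.37) and Obox2 fell (-0.62), and with median centring 2 rose and 0 fell. Obox2 lost its call on leaving out any 1 library, and Obox5 without MII replicate 2 or either late 1-cell library.

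Leaving out predicted gene models, the largest rises among genes averaging 5 FPKM or more in the late 1-cell libraries were in mRNAs of the mitochondrial genome, and not all of these passed. An unclassified gene model, Gm36976, chosen after its values were seen, changed more (1.51, from 46.6 and 35.7 FPKM to 139 and 100.3 FPKM), with 62.6% of its stretches shared with other genes. Of the 13 mitochondrial mRNAs 6 (46.2%) rose and 0 fell, beside 3.19% and 7.73% of all genes. mt-Nd4, a subunit of complex I, was at 375 and 298 FPKM in eggs and at 747 and 736 FPKM in late 1-cell embryos (log2 change 1.15, SE 0.17, adjusted p = 0.000137, limma). mt-Cytb, of complex III, went from 1336 and 1165 FPKM to 2676 and 2768 FPKM (log2 change 1.12, SE 0.18, adjusted p = 0.0002). mt-Nd5, mt-Nd2 and mt-Nd1 changed by 1.05, 1.00 and 0.91. mt-Co1 changed by 0.57 (adjusted p = 0.0172, and 0.238 without MII replicate 2).

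The other 7 mitochondrial mRNAs did not pass. Mitochondrial mRNAs are cut from long precursor transcripts. mt-Co2 was at 54.3 and 59.8 FPKM in eggs and at 41.4 and 47.6 FPKM afterwards, and mt-Nd3 at 63.1 and 63.7 FPKM and then 44.1 and 41.5 FPKM (log2 change -0.56, adjusted p = 0.342, limma). mt-Atp6, mt-Atp8, mt-Co3, mt-Nd4l and mt-Nd6 changed by -0.21 to 0.25. Summed over all 13, the level was 5185 and 4576 FPKM in eggs and 8697 and 8714 FPKM in late 1-cell embryos. The nuclear genome holds copies of mitochondrial sequence: 62.2% of the stretches of mt-Nd4 and 51.1% of those of mt-Co1 occur in other annotated genes, while mt-Cytb and mt-Nd1 share none. The direction of the 6 rises did not change under any scaling, and mt-Nd4, mt-Cytb, mt-Nd5, mt-Nd2 and mt-Nd1 passed without each library.

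Of the 12 nuclear and mitochondrial genes that rose most, the remainder were Zfp426, Rpph1, G3bp2, Spred2, Hddc3, Cfap300 and Anp32e. Rpph1, the RNA component of RNase P, went from 438 and 436 FPKM to 752 and 804 FPKM (log2 change 0.83, adjusted p = 0.0229, limma), with 68.1% of its stretches shared. Spred2, an inhibitor of RAS signalling, went from 5.39 and 6.14 FPKM to 10.1 and 11.6 FPKM (log2 change 0.81, adjusted p = 0.00524). Anp32e, the chaperone that removes histone H2A.Z, went from 6.76 and 6.00 FPKM to 12.1 and 11 FPKM (log2 change 0.77, adjusted p = 0.0192). Zfp426, Hddc3 and Cfap300 changed by 0.83, 0.77 and 0.77. Apart from G3bp2 and the 5 mitochondrial mRNAs, none of these 6 calls held without each library in turn. Zfp426, Hddc3, Rpph1 and Anp32e lost theirs on leaving out any 1 of the 4 libraries. Cfap300 lost its call without MII replicate 2 or either late 1-cell library, and Spred2 without MII replicate 1 or late 1-cell replicate 2.

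A small set of genes with little RNA in the egg was higher in late 1-cell embryos. Of the 485 genes that rose, 19 had a mean under 1 FPKM in eggs. How many of all genes tested had such a mean is not given here, so this count has no background share. Not all of the 19 were near 0, since Espn was at 0.875 and 0.532 FPKM in eggs. Duxf3 (chr10:58229979-58232675, minus strand), a copy of the double homeobox gene that activates 2-cell genes, was at 0.0436 and 0 FPKM in eggs and at 2.78 and 4.27 FPKM in late 1-cell embryos (log2 change 2.13, SE 0.24, adjusted p = 3.75e-06, limma). AW822073 (chr10:58222972-58224930, minus strand), another copy in the same cluster, was at 0.0572 and 0.0352 FPKM and then at 3.40 and 3.76 FPKM (log2 change 2.13, SE 0.18, adjusted p = 1.27e-07). These were the 2 largest rises of the comparison. The copies share 47.0% and 52.1% of their stretches with each other and with related genes, so reads may be divided between them. Over the control series Duxf3 reached a mean of 4.86 FPKM in early 2-cell embryos and 0.457 FPKM in late 2-cell embryos, and AW822073 reached 5.59 and 0.433 FPKM.

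Genes of the 2-cell stage appeared in part. Usp17lc (chr7:103415072-103419880, plus strand), a deubiquitinase gene of a repeated family, was at 0 and 0.150 FPKM in eggs and at 1.26 and 1.70 FPKM in late 1-cell embryos (log2 change 1.21, SE 0.24, adjusted p = 0.00212, limma), and at a mean of 47.2 FPKM in early 2-cell embryos. Usp17ld was listed at 0 in both egg libraries and at 0.517 and 0.856 FPKM afterwards (adjusted p = 0.0319), with a mean of 14.5 FPKM in early 2-cell embryos. The Usp17ld call was lost on leaving out any 1 library. Of 53 genes of 2-cell and activation families 6 (11.3%) rose and 0 fell, beside 3.19% and 7.73% of all genes. Those that rose were Duxf3, AW822073, Usp17lc, Usp17ld, Sp110 and Rfpl4. The last pair was already abundant in the egg. Sp110 went from 139 and 135 FPKM to 199 and 193 FPKM and Rfpl4 from 348 and 346 FPKM to 464 and 508 FPKM. The Sp110 call was lost on leaving out any 1 library, and the Rfpl4 call did not hold without late 1-cell replicate 2. The count of 6 became 3 without either MII or late 1-cell replicate 2 and 4 without either replicate 1.

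Zfp352, a zinc-finger gene of the 2-cell embryo, was at 0.0198 and 0.0333 FPKM in eggs and at 0.0762 and 0.115 FPKM in late 1-cell embryos, and reached a mean of 58.4 FPKM only in early 2-cell embryos. Zscan4d was at 0.708 and 1.5 FPKM and then at 1.82 and 1.80 FPKM, and reached 50.2 FPKM in early 2-cell embryos. Neither passed the test from egg to late 1-cell (adjusted p = 0.933 and 0.548, limma). Zfp353-ps, an annotated pseudogene named after its values were seen, was listed at 0 in both egg libraries and at 0.750 and 0.741 FPKM in late 1-cell embryos (adjusted p = 0.00142), and at a mean of 22.2 FPKM in early 2-cell embryos. Hist1h2an, a histone H2A gene that shares 85.8% of its stretches with other genes, was at 0.0684 and 0.0426 FPKM and then at 1.11 and 2.50 FPKM (adjusted p = 0.00128, and 0.0534 without late 1-cell replicate 2), and continued to 20.9 and 75.1 FPKM in early and late 2-cell embryos.

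Myc and Gadd45g were listed at 0 in both egg libraries. Myc, the growth-related transcription factor, was at 0.722 and 0.536 FPKM in late 1-cell embryos (adjusted p = 0.0248, limma). Gadd45g, a stress-response gene, was at 0.563 and 0.926 FPKM (adjusted p = 0.037). Both calls were lost on leaving out any 1 of the 4 libraries. With depth unknown, the number of fragments behind such low values cannot be given. A promoter was at hand for 10 of the 19 genes, and 1 of them, Gadd45g, held TATAAA on the sense strand between 40 and 20 bases before the start. Of all tested genes with a promoter 150 of 9953 (1.51%) held it there. Its window, from 50 bases before the start, is shown with the box in capitals because it is the single match.
Gadd45g, chr13:51846625-51846684, plus strand: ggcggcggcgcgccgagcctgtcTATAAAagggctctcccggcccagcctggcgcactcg

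**Figure D4:**
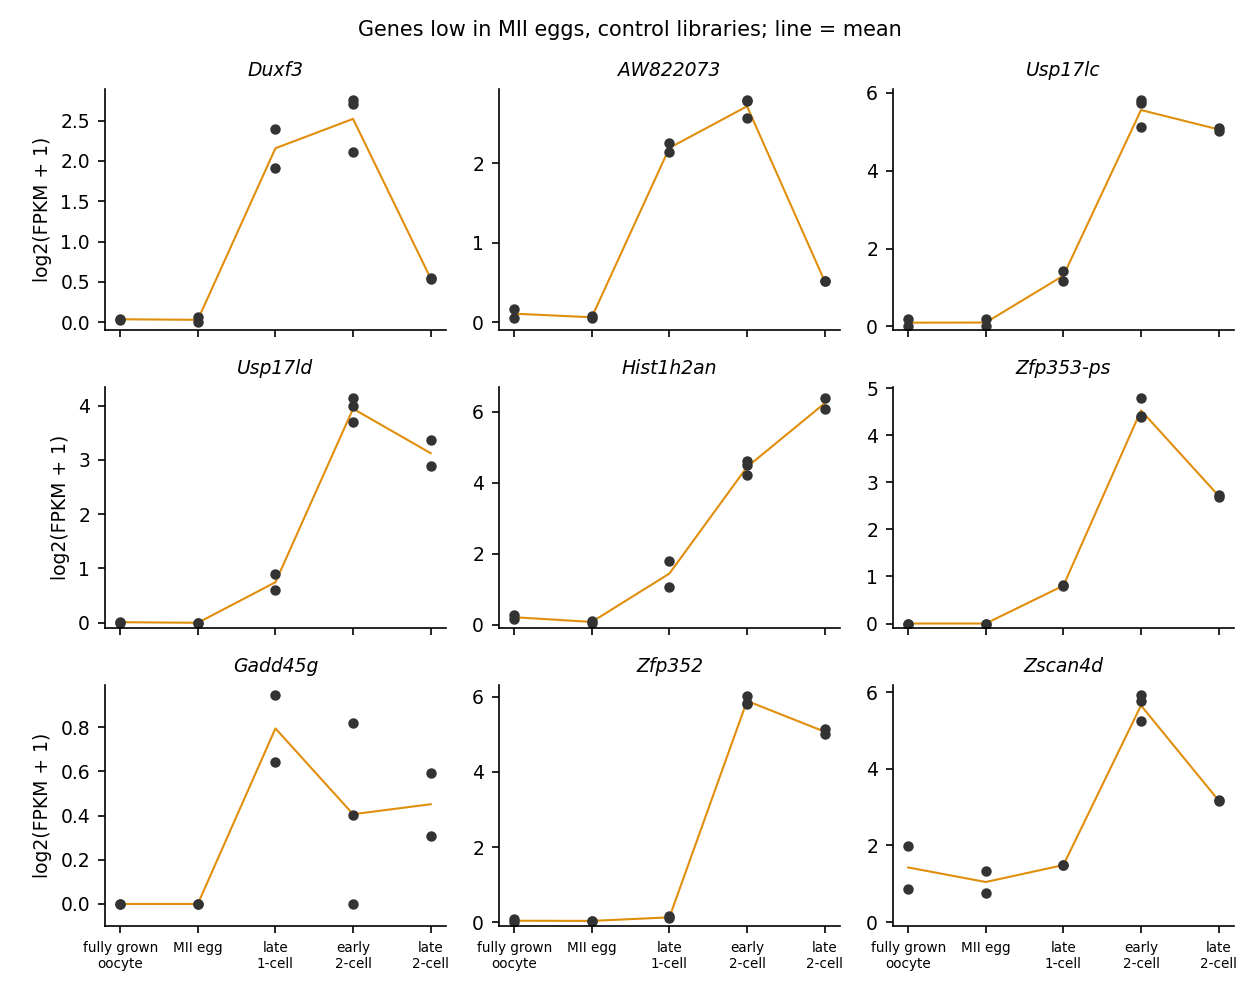
Level of 9 genes with little RNA in the egg, as log2(FPKM + 1) in each control library from fully grown oocytes through to embryos late in the 2-cell stage, with a line through the stage means. Each panel has its own vertical scale. Duxf3 and AW822073 are already above their egg level at late 1-cell (means 3.52 and 3.58 FPKM), while Zfp352 and Zscan4d stay low there and climb at early 2-cell (means 58.4 and 50.2 FPKM).

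Transcripts that fell and rose differed in length and base composition. The 1031 protein-coding genes that fell had a median 3′ UTR of 516 bases, the 446 that rose 1532 bases, and the 10198 not past the threshold 952 bases. The share of G or C at the third codon position had a median of 63.6% in genes that fell, 50.1% in genes that rose and 59.3% in the rest. Among genes with at least 5 FPKM in eggs, split into 4 equal groups, those with the shortest 3′ UTRs fell in 23.1% and rose in 2.90% of cases. In the group with the longest 3′ UTRs 9.34% fell and 10.4% rose. In the group with the lowest third-position GC 6.44% fell and 11.9% rose, and in the highest 21.3% fell and 2.53% rose. Across these 6335 genes, which are not independent replicates, the log2 change had Spearman's rho 0.25 with 3′ UTR length and -0.28 with third-position GC. Without the ribosomal and oxidative phosphorylation genes, 6186 genes gave 0.22 and -0.27. Length and base composition also bear on how FPKM is measured in randomly primed libraries, and the part of this in the pattern was not tested.

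**Figure D5:**
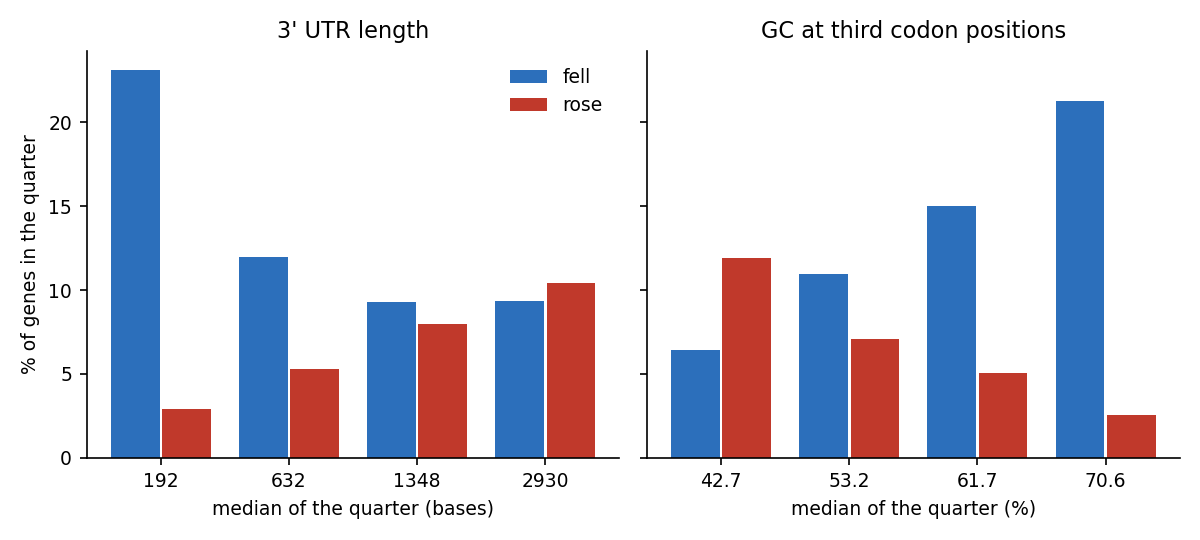
Percent of protein-coding genes with at least 5 FPKM in eggs that fell (blue) and rose (red) in each of 4 equal groups by 3′ UTR length and by GC at the third codon position, with the median of each group on the horizontal axis. Falls decline from 23.1% to 9.34% with UTR length and climb from 6.44% to 21.3% with GC, and rises go the other way.

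The same step in the knockout arm, which shares no library with the control step, gave fewer calls. There 707 genes (4.66%) fell and 159 (1.05%) rose in 3 late 1-cell against 3 egg libraries. Of the genes that fell, 598 fell in both arms, 51.0% of the control list and 84.6% of the knockout list. Of those that rose, 98 rose in both, 20.2% and 61.6% of the lists. No gene was called in opposite directions. Mos changed by -2.12, Bub1b by -1.46, Gdf9 by -1.28 and Zp1 by -2.32 in the knockout arm. Gdf9 was at 930, 1039 and 949 FPKM in knockout eggs and at 586, 391.6 and 277 FPKM in knockout late 1-cell embryos, all 3 above the 178 and 202 FPKM of the controls. Duxf3 reached 1.39, 2.52 and 2.33 FPKM and Gadd45g 0.656, 1.04 and 0.907 FPKM, whereas Myc was at 0.046, 0 and 0 FPKM.

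Genes that fell in controls had a median change of -0.95 there and -0.56 in the knockout arm, but that list was chosen on the control values. Genes that fell in the knockout arm, chosen on its own values, changed by a median of -0.98 in controls and -0.73 in knockouts, and 78.6% of them changed more in controls. Genes that rose in the knockout arm changed by 0.43 in controls and 0.35 in knockouts. The ribosomal protein list had a median of -0.29 and 15 falls in the knockout arm, and the oxidative phosphorylation list -0.42 and 18 falls. The difference between the arms, tested gene by gene as an interaction, called 0 genes (0%) in limma over all 26 libraries, with 668 at an unadjusted p of 0.05 and a smallest adjusted p of 0.527. A fit of the 10 egg and late 1-cell libraries called 6 genes, and a fit without early 2-cell libraries called 5 (Cox17, Cstf1, Hspa8 and Sap18, whose change was less negative in knockouts or above 0, and Gm42553, an unclassified gene model whose change was less positive there). Hspa8 and Sap18 were called in both fits. Sap18, part of a histone deacetylase complex, was at 91.8 and 79.9 FPKM and then 39.4 FPKM in both control late 1-cell libraries, and went from 73.6, 67.4 and 57.7 FPKM to 70.7, 71.6 and 80.4 FPKM in knockouts.

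The neighbouring control steps share a stage with this one, so their values are given side by side and not compared by overlap. From fully grown oocyte to MII egg 183 genes fell and 27 rose, and from late 1-cell to early 2-cell 4680 fell and 2894 rose. Mos changed by -0.61 before the egg stage, by -3.0 from egg to late 1-cell and by -1.53 to early 2-cell. Gdf9 changed by -0.20, -2.31 and -1.08 in these steps, and Bub1b by -0.50, -2.49 and -2.0. Zp3 and Zp2 had their largest change during maturation, -2.39 and -1.76, followed by -1.59 and -1.01. Cpeb1 changed by -1.33, -0.31 and -1.73, and Dnmt1 by -0.93, -0.44 and -2.76. Among ribosomal genes Rplp1 changed by -1.88, -2.03 and then 1.80 and Rpl41 by -1.19, -1.96 and 0.95. The medians of the whole ribosomal protein list over these 3 steps were -0.55, -0.85 and -0.40, so the list's median was still below 0 after the late 1-cell stage. mt-Nd4 changed by 1.41, 1.15 and 1.11, and mt-Cytb by 1.18, 1.12 and 1.11.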

How the data were processed

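The 4 control libraries of MII eggs and late 1-cell embryos, and 22 further total RNA libraries of oocytes and early embryos fitted with them, were made with the SMART-Seq Stranded kit, per the labels' protocols. The values are the authors' deposited FPKM per gene, in 1 table of 55401 genes. The submitters' processing notes name Trim Galore 0.6.6, STAR 2.7.9, StringTie 2.1.7 and mm10, with no role or order, and the annotation is not given in the sources used here. FPKM keeps no read count, so the depth is unknown and no interval for counting error is given. The 2 libraries per group limit the precision. The column headers end in rpkm, and 0 columns were left unused. Symbols and positions come from a GENCODE release on GRCm38, which holds 54349 of the genes with the same version.

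The scale was log2(FPKM + 1), and a gene was tested if 2 or more of the 26 libraries reached 1 FPKM. A change on this scale understates that of low genes. limma 3.58.1 in R 4.3.3 (eBayes with an intensity trend) was fitted to the 26 libraries, and late 1-cell was compared with MII, two-sided, with Benjamini-Hochberg adjustment over all genes and a threshold of 0.05. On simulated data for this comparison with 14698 genes, the fit recovered 56% of genes with a log2 change of 0.5, 94% at 1, 98% at 2 and 84% at -1, with 0 false calls. The genes changed in the simulation were drawn only from those well above the median egg level of the genes tested. These rates therefore do not cover low genes, such as those near 0 in the egg. No library-wide shift was simulated, so the 0 false calls do not cover the dependence of the calls on scaling. On the same simulated data a fit of the 4 control libraries gave 10 false calls. Tables were made in Python 3.11.15 (pandas 2.3.3) and plots with matplotlib 3.10.9. Sequence shared with other genes is the percent of a gene's exonic words of 50 bases found in another annotated gene.

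The genes named are the 12 largest rises and the 12 largest falls past the threshold, with both late 1-cell libraries on the same side of both egg libraries, the higher group's mean at 5 FPKM or more and at least 200 exonic bases, leaving out predicted genes and pseudogenes. Added to these are key genes and up to 4 genes per direction of each list, and Bap1. Genes said to be chosen after their values were seen, members of short counts, the ribosomal genes shown by sequence, and Fgf8, Figla, Nobox, Bmp6, Mapk3 and Sap18 fall outside this rule. The comparison and the lists were chosen with earlier results of these data known. Some genes that this rule selects are not reported here.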

Additional observations from a re-analysis of the deposited data

How the results depend on the processing

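The number of genes called from egg to late 1-cell embryo in controls (485 higher, 1173 lower) depended on the scaling and on the libraries fitted. Higher genes numbered 303 with TPM scaling, 1454 with median centring and 830 with quantile normalization, and lower genes stayed within 1.5 times under these. Higher and lower genes numbered 1267 and 2183 in a fit of the 4 control libraries and 1145 and 2124 in a fit of the 10 MII and late 1-cell libraries, and higher genes 834 without early 2-cell libraries. With a required absolute log2 change of at least 1 they numbered 12 and 531. Without 1 library they ranged from 128 to 206 higher and from 596 to 767 lower. The labels give replicate numbers and do not say whether same-numbered samples were paired. Same-numbered egg and late 1-cell libraries had deviations correlated at 0.017 over 15184 genes, which cannot settle this with 2 libraries per group. With the replicate number as a block (replicate block, in a fit of the 4 control libraries) 1044 genes were higher and 2082 lower, and of the named calls tested 131 of 134 were kept, with Cdc25c, Rfc4 and mt-Rnr1 lost. In the knockout arm (159 higher, 707 lower) higher genes numbered 84 with TPM scaling, 493 with median centring and 96 without the trend, and higher and lower genes 608 and 1413 in the fit of 10 libraries and 364 and 1137 without early 2-cell libraries. The difference between the arms (knockout change minus control change) was called above 0 for 5 genes and below 0 for 1 in the fit of 10 libraries, and 4 and 1 without early 2-cell libraries. The cause of these shifts was not tested. Where 1 left-out library is named for a gene's adjusted p-value, its removal gave the highest value. Other removals may also cost that call. Of the 138 named genes called, 72 passed without each library in turn (52 of 74 that fell and 20 of 64 that rose), 120 passed with TPM scaling, 128 with median centring, 124 with quantile normalization and 128 with a pseudocount of 0.1, and 0 changed direction under any setting run.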
